A study of Mus musculus with 4 samples.

Results

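Glutathione S-transferase transcripts were measured by RNA-seq in the liver of WT and *Usp21* KO mice. The 10 genes described here are 4 alpha-class genes (*Gsta1*, *Gsta2*, *Gsta3*, *Gsta4*), 3 mu-class genes (*Gstm1*, *Gstm2*, *Gstm3*), the pi-class gene *Gstp1*, the theta-class gene *Gstt1* and the microsomal gene *Mgst1*. They were taken by symbol from a table of 35739 genes, all 10 were found, and all 10 were among the 9581 genes whose mean reached 1 TPM (a level relative to all transcripts of the library, corrected for transcript length). The WT group held the libraries of mice 2 and 3 and the KO group those of mice 1 and 3, taken as 1 library per mouse because the titles number the mice. The KO allele is a constitutive deletion of exons 3 and 4 in all tissues, made in 129/Sv ES cells. WT and KO animals were littermates on a mixed B6 × 129/Sv background, on a normal diet and 10 to 11 weeks old, and their sex and the hour of tissue collection are not given in the sources used here. With a mixed background, alleles linked to *Usp21* and the deletion itself cannot be told apart, and whole liver combines hepatocytes with other cell types.

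Glutathione S-transferases join the tripeptide glutathione to electrophilic compounds, which makes drugs, carcinogens and products of lipid peroxidation more soluble and ready for export. Most of them are dimers of the cytosol, grouped into classes by sequence, while *Mgst1* encodes an enzyme of the endoplasmic reticulum and outer mitochondrial membrane from an unrelated family. In the liver they are abundant proteins of the hepatocyte, and many are known targets of NRF2, the transcription factor that responds to electrophiles, and of the xenobiotic receptors CAR and PXR.

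*Usp21* had a level of 4.07 and 6.29 TPM in WT against 1.64 and 2.93 TPM in KO (log2 fold change -0.92 ± 0.33 (SE, n = 2 per group), adjusted p = 0.464 by limma), and reads from the exons that the deletion leaves count toward these values. The TPM values carry no depth, and a second table, of read counts on the same libraries, holds 102898 to 148164 reads per library. That table misses abundant genes: of 682 genes in both tables at 100 TPM or more in every library, 428 are listed at 0 in all 4 of its columns, among them *Gapdh*, and *Alb* has 1 to 9 reads. Its totals are therefore not the depth behind the TPM values. Hepatocyte markers summed to 84440 and 68300 TPM in WT against 69680 and 59000 TPM in KO, and 7 of 8 exocrine pancreas markers were at 0 throughout. A set of 4 Y-linked genes was above 0 in every library, among them *Ddx3y* at 7.14 to 20.5 TPM and *Eif2s3y* at 11.9 to 24.4 TPM. Each library therefore holds RNA of a male mouse. Of the 7 tested markers of stellate cells and fibroblasts, 7 had a log2 fold change above 0. Their median was 0.52, beside 0.15 over all tested genes. The list summed to 59.4 and 49.2 TPM in WT against 100.1 and 73.3 TPM in KO. The cholangiocyte list summed to 17.9 and 18.3 TPM in WT against 42.0 and 27.3 TPM in KO, mostly from *Spp1*, and no marker of either list was at 0 in every library. Of the 8 tested markers of sinusoidal endothelium, 8 had a log2 fold change above 0 as well, with a median of 0.20. The part of these cells in the values below was not tested.

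In limma, 0 of the 10 transferases passed the adjusted threshold of 0.05 between the genotypes, where 0.0835% of all tested genes did, while edgeR and DESeq2 on the read counts could not have called one, since no member had more than 2 reads in a library. The levels of 5 members were higher in KO and those of 5 were lower, and none reached a 2-fold difference, which 3.68% of all tested genes did. *Gsta3*, a major alpha-class enzyme of mouse liver, was the 1 member with an unadjusted p under 0.05, at 0.698 of its WT mean, against 10.5% of all tested genes. The 95% intervals of 6 of 10 members lay inside a 2-fold difference in both directions. In whole liver, fewer cells that express a gene and less of its RNA per cell cannot be told apart.

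The members ranged from some of the most abundant transcripts of the liver to a middling level. *Gstp1* and *Mgst1* ranked 33 and 36 by mean TPM among the 9581 tested genes, *Gstm1* 67 and *Gsta3* 80. These 4 genes made up 95.7% to 96.7% of the TPM of all 10 members in each library. *Gstt1* ranked 460, *Gsta2* 706, *Gsta4* 867, *Gstm2* 1125 and *Gstm3* 1131, and *Gsta1*, at rank 3361, was the lowest. Over the 4 libraries, the TPM ranges of *Gstp1* and *Mgst1* overlapped, as did those of *Gstm1* and *Gsta3*, of *Gsta4* and *Gstm2*, and of *Gstm2* and *Gstm3*. The other neighbours in this order were separated in every library.

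**Figure D1:**
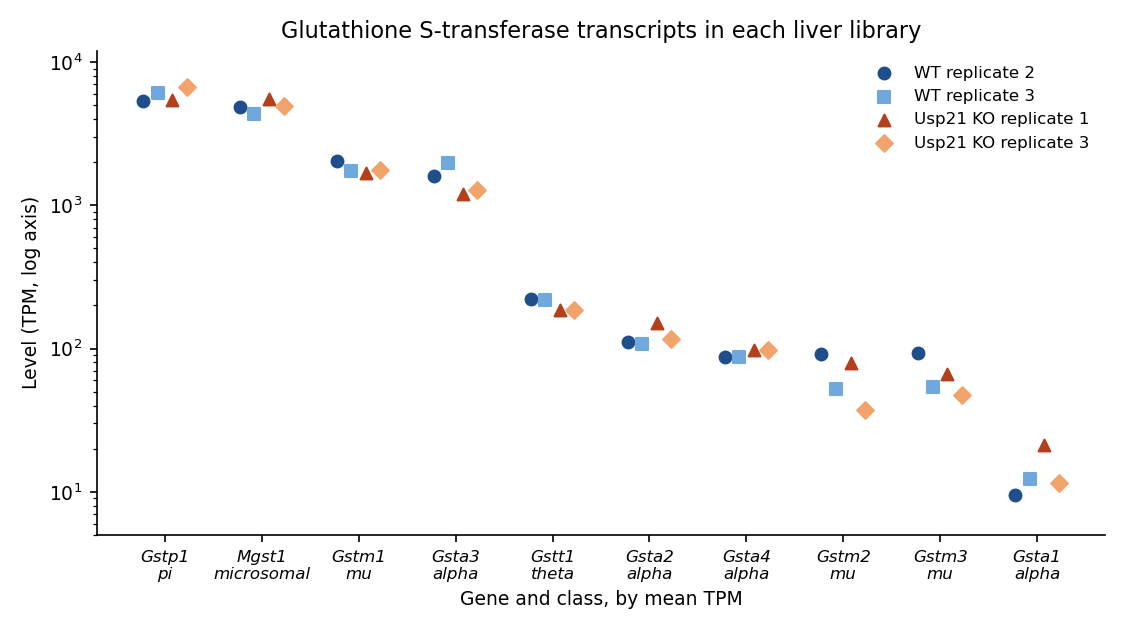
TPM of each member (vertical log axis) in the 2 WT and 2 KO libraries, 1 point per library, with genes ordered by mean TPM on the horizontal axis. *Gsta3* has both KO points below both WT points, whereas *Gstm2* and *Gstm3* separate WT replicate 2 and KO replicate 1 from the other libraries more than they separate the genotypes.

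The alpha class holds enzymes with high activity toward lipid hydroperoxides and their aldehyde products. *Gsta3* (ENSMUSG00000025934, chr1:21240589-21265661, forward strand, build GRCm38) was measured at 1606 and 1964 TPM in WT and at 1204 and 1287 TPM in KO. Both KO libraries lay below both WT libraries. The log2 fold change was -0.51 ± 0.20 (SE, n = 2 per group), with a 95% interval from -1.01 to -0.01, an unadjusted p of 0.0462 and an adjusted p of 0.472 by limma. The median of all tested genes was 0.15 on the same scale, and relative to it *Gsta3* stood at -0.66. With the libraries scaled to an equal upper quartile, where the median of all genes was 0.036, the log2 fold change of *Gsta3* was -0.65 (unadjusted p = 0.0191, adjusted p = 0.528 by limma). Without 1 library at a time, it ranged from -0.66 without WT replicate 2 to -0.37 without WT replicate 3, and the unadjusted p was between 0.0714 and 0.239. With variances not moderated across genes, the unadjusted p of *Gsta3* was 0.0782.

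The other alpha-class genes lie close together on chromosome 9. *Gsta4* (ENSMUSG00000032348, chr9:78182774-78209349, forward strand), whose enzyme prefers the peroxidation product 4-hydroxynonenal, was measured at 86.7 and 87.3 TPM in WT against 97.9 and 97.6 TPM in KO. Its replicates were nearly equal and both KO libraries were above WT, at a log2 fold change of 0.17 ± 0.15 (SE, n = 2 per group; 95% interval -0.22 to 0.55; adjusted p = 0.693 by limma). This is 0.016 above the median of all genes, and with upper quartile scaling the value was 0.033. With variances not moderated across genes, the unadjusted p was 0.000877 and the adjusted p 0.377 (limma).

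*Gsta2* (ENSMUSG00000057933, chr9:78331018-78355788, reverse strand) was measured at 111 and 108 TPM in WT and at 150 and 117 TPM in KO. Both KO libraries were higher, replicate 3 only slightly, and the log2 fold change of 0.27 ± 0.19 (SE, n = 2 per group; adjusted p = 0.604 by limma) ranged from 0.09 without KO replicate 1 to 0.45 without KO replicate 3. *Gsta1* (ENSMUSG00000074183, chr9:78230656-78242684, forward strand), which encodes an inducible enzyme close to that of *Gsta2*, was measured at 9.55 and 12.3 TPM in WT and at 21.1 and 11.6 TPM in KO. KO replicate 3 lay under WT replicate 3, so the groups overlapped. Its log2 fold change was 0.49 ± 0.32 (SE, n = 2 per group; 95% interval -0.30 to 1.29; adjusted p = 0.582 by limma), 0.09 without KO replicate 1 and 0.90 without KO replicate 3.

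The *Gsta1* value depends on how reads were divided among near-identical copies. Of the distinct stretches of 31 bases in its transcripts, 92.9% also occur in a transcript of another expressed gene, and 80.3% occur in *Gsta13* (named *Gm3776* in GENCODE M21). The coding sequences of *Gsta1* and *Gsta13* are both 669 bases long and differ at 2 positions. The first 30 coding bases of both, in exon 2, are shown because they hold 1 of these differences, in capitals (*Gsta1* at chr9:78232240-78232269, *Gsta13* at chr9:78258712-78258741, both forward strand, GRCm38, GENCODE M21 transcripts).
Gsta1: atggccgggaagcccgtgcttcacTacttc
Gsta13: atggccgggaagcccgtgcttcacCacttc
*Gsta13* was measured at 12.3 and 18.2 TPM in WT against 22.6 and 12.2 TPM in KO, a pattern across libraries like that of *Gsta1*. The sum of both genes was 21.9 and 30.5 TPM in WT against 43.7 and 23.9 TPM in KO, so the groups overlapped in the sum as well. For *Gsta2*, 58.7% of stretches are shared, 44.7% with *Gsta1*, while for *Gsta3* the share is 0.961% and for *Gsta4* it is 0%.

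The mu class is a cluster of genes on chromosome 3 whose enzymes act on epoxides and quinones. *Gstm1* (ENSMUSG00000058135, chr3:108012255-108017973, reverse strand), the major mu-class gene of these livers, was measured at 2032 and 1735 TPM in WT and at 1670 and 1768 TPM in KO. The groups overlapped, with a log2 fold change of -0.13 ± 0.20 (SE, n = 2 per group; 95% interval -0.62 to 0.36; adjusted p = 0.821 by limma). Of its stretches of 31 bases, 27.0% are shared with other genes, 22.6% with the pseudogene *Gstm2-ps1*. *Gstm2* (ENSMUSG00000040562, chr3:107981702-107986453, reverse strand) was measured at 92.3 and 52.6 TPM in WT and at 79.3 and 37.5 TPM in KO. *Gstm3* (ENSMUSG00000004038, chr3:107963696-107969283, reverse strand) was measured at 93.5 and 53.7 TPM in WT and at 66.7 and 47.3 TPM in KO. In both genes 1 KO library fell between the WT libraries, and the log2 fold changes of -0.35 ± 0.43 for *Gstm2* and -0.33 ± 0.32 for *Gstm3* (SE, n = 2 per group; adjusted p = 0.769 and 0.702 by limma) changed sign when WT replicate 2 was left out, to 0.053 and 0.065.

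The spread between libraries of 1 genotype was larger in part of the mu class than in most liver genes, a pattern noticed after the values were seen. *Gstm2* was higher in WT replicate 2 than in WT replicate 3 by 0.80, and higher in KO replicate 1 than in KO replicate 3 by 1.06, both as differences of log2(TPM + 1). The corresponding differences were 0.79 and 0.49 for *Gstm3*, 0.55 and 0.76 for *Gstm6*, and 0.61 and 0.68 for *Gstm7*. These 4 genes are consecutive among the mu genes of the cluster and cover 60.1 kb (chr3:107926334-107986453) of the 149.1 kb that all 7 mu genes cover (chr3:107895821-108044894). The genes at both ends of the cluster did not share this order of libraries. *Gstm1* gave 0.23 and -0.08, *Gstm4* 1.08 and -0.45, and *Gstm5* -0.28 and 0.27.

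Of 4025 tested genes averaging 10 TPM or more, 75 (1.86%) had both differences at 0.45 or more, a threshold chosen with the values of these 4 genes in view. The medians of the 4025 genes were 0.01 for WT and 0.12 for KO. The 75 genes also hold genes outside the family, so this order of libraries was not particular to the cluster. Examples are *Cbs* (0.79 and 0.52), *Cth* (0.56 and 1.03), *Cebpa* (0.46 and 0.89), *Oat* (0.69 and 1.12) and *Hal* (0.63 and 0.51). The libraries with the higher values also had more reads in the read-count table (148164 and 145306 against 110427 and 102898), and the part of this difference in the order was not tested. Shared sequence was low for 3 of the 4 consecutive mu genes, at 4.7% of stretches in *Gstm2*, 5.38% in *Gstm6* and 2.38% in *Gstm7*, and was 24.8% in *Gstm3*. The coding sequences of *Gstm2* and *Gstm3* are 84.7% identical (100 differences over 654 bases). Coding bases 613 to 642, in exon 8, are shown as the stretch where they differ most, with the differing bases in capitals (*Gstm2* at chr3:107982064-107982093, *Gstm3* at chr3:107964222-107964251, both reverse strand, GRCm38).
Gstm2: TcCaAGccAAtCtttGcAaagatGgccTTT
Gstm3: CcAaGAccTGtGtttAcTaagatAgccCAG

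**Figure D2:**
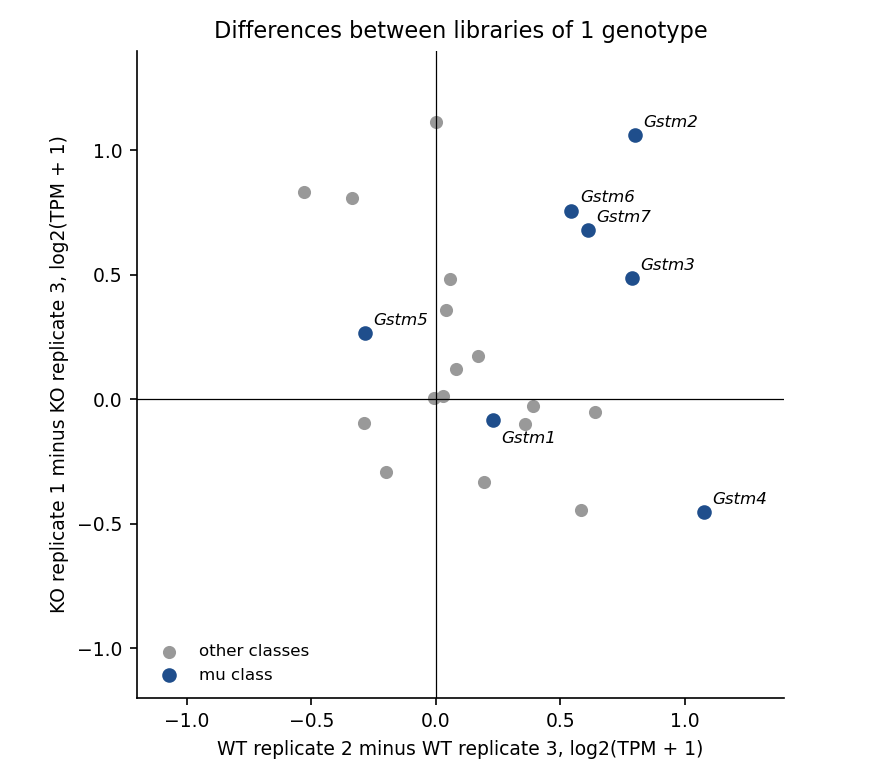
Difference between the 2 WT libraries (horizontal) and between the 2 KO libraries (vertical) in log2(TPM + 1), 1 point per tested gene of the family, with mu-class genes in blue. *Gstm2*, *Gstm3*, *Gstm6* and *Gstm7* lie in the upper right corner, apart from *Gstm1*, *Gstm4* and *Gstm5*, and *Gstp2*, at -0.04 and 3.48, is outside the axes and not drawn.

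*Gstp1*, the pi-class gene, encodes an enzyme that also binds and restrains stress kinases. It (ENSMUSG00000060803, chr19:4035407-4037985, reverse strand) was measured at 5318 and 6104 TPM in WT and at 5447 and 6662 TPM in KO. The groups overlapped, with a log2 fold change of 0.08 ± 0.24 (SE, n = 2 per group; 95% interval -0.52 to 0.68; adjusted p = 0.912 by limma). The sign turned with upper quartile scaling (-0.054). Its neighbour *Gstp2* (ENSMUSG00000038155, chr19:4040285-4046023, reverse strand), not among the 10 members, was measured at 7.53 and 7.76 TPM in WT and at 266 and 23.0 TPM in KO. Both KO libraries were above WT, KO replicate 1 by far the most, and the log2 fold change was 3.21 ± 1.05 (SE, n = 2 per group; unadjusted p = 0.0243, adjusted p = 0.464 by limma). It was 1.47 without KO replicate 1 and 4.95 without KO replicate 3.

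*Gstp1* and *Gstp2* are 98.1% identical over 630 coding bases, with 12 differences, and 54.8% of the stretches of 31 bases in *Gstp2* occur in *Gstp1*. Coding bases 301 to 330, in exon 5, hold 5 of the differences, in capitals, and are shown as a place where a read can tell the genes apart (*Gstp1* at chr19:4036694-4036723, *Gstp2* at chr19:4040988-4041017, both reverse strand, GRCm38).
Gstp1: cgcggcaaatatgTcaccCtCatctacaCC
Gstp2: cgcggcaaatatgGcaccAtGatctacaGA
*Gstp2* made up 0.141% and 0.127% of the TPM of the pair in WT, and 4.66% and 0.344% in KO. The sum of the pair was 5325 and 6111 TPM in WT against 5713 and 6685 TPM in KO, with KO replicate 1 between the WT libraries. *Gstp1* alone, at 5447 TPM in KO replicate 1, lay between its WT values as well. The sum therefore does not bear on the *Gstp2* difference. The TPM table does not hold the reads that would show how they were divided between the genes.

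*Gstt1* (ENSMUSG00000001663, chr10:75783813-75798584, reverse strand) encodes a theta-class enzyme that acts on small halogenated compounds. It was measured at 221 and 217 TPM in WT and at 187 and 186 TPM in KO. Replicates were close and both KO libraries lay below WT, with a log2 fold change of -0.23 ± 0.15 (SE, n = 2 per group; 95% interval -0.62 to 0.15; unadjusted p = 0.187, adjusted p = 0.590 by limma). Relative to the median of all genes it stood at -0.38. The unadjusted p was 0.0492 with upper quartile scaling and 0.00416 with variances not moderated across genes, and the adjusted p was 0.538 and 0.405 (limma). Leaving out 1 library at a time kept its log2 fold change between -0.25 and -0.22, and 0.468% of its stretches are shared with another gene.

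*Mgst1* (ENSMUSG00000008540, chr6:138140316-138156755, forward strand), which protects membranes as both a transferase and a peroxidase, was measured at 4854 and 4316 TPM in WT and at 5539 and 4917 TPM in KO. Both KO libraries lay above WT, with a gap between KO replicate 3 and WT replicate 2 smaller than that between replicates. The log2 fold change was 0.19 ± 0.22 (SE, n = 2 per group; 95% interval -0.37 to 0.74; adjusted p = 0.760 by limma), which was 0.039 above the median of all genes, and none of its stretches are shared with another expressed gene.

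Across the members, both KO libraries lay above both WT libraries in 3 genes (*Gsta2*, *Gsta4* and *Mgst1*) and below them in 2 (*Gsta3* and *Gstt1*). Over all tested genes the groups did not overlap in 45.3%, higher in KO in 34.4% and lower in KO in 10.9%. The median log2 fold change of the members was -0.024 beside 0.15 over all tested genes. With upper quartile scaling, 0 members had both KO libraries above WT and 3 had both below. An exact permutation test of a single gene could not reach p = 0.05 here, since the smallest p that 4 libraries allow is 0.33.

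**Figure D3:**
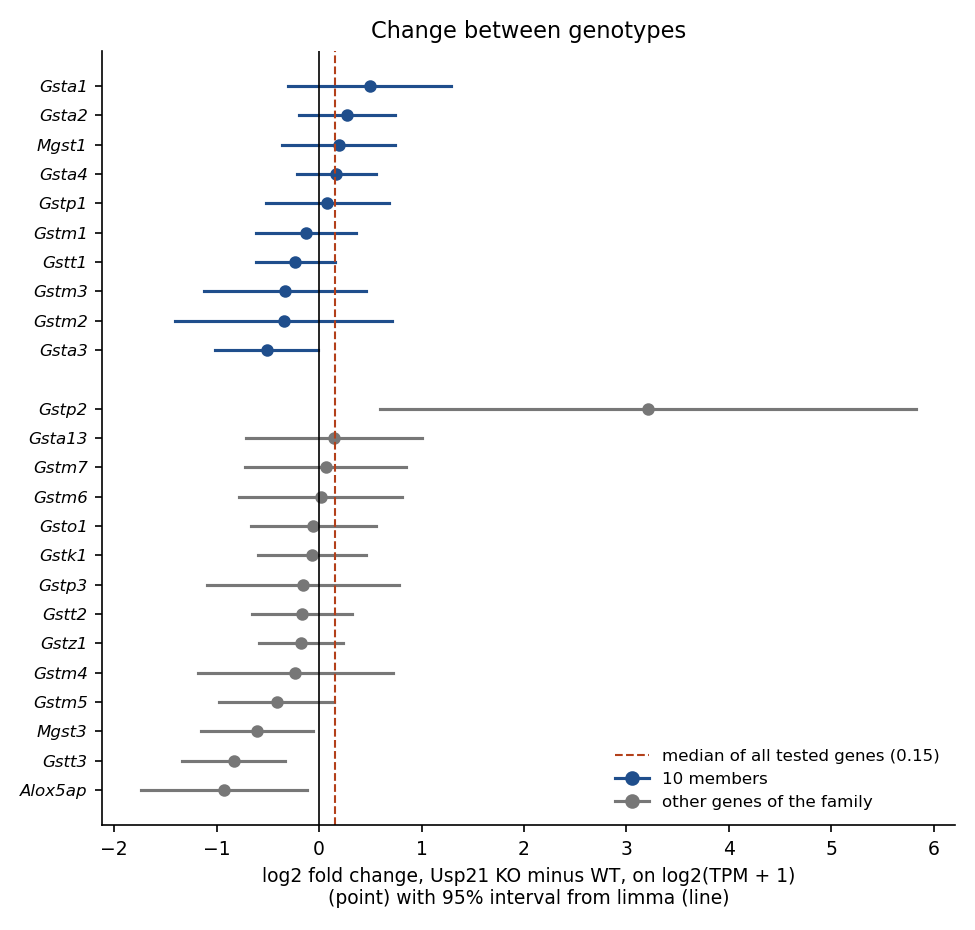
Log2 fold change of KO against WT on log2(TPM + 1) (point) with its 95% interval from limma (line), for the 10 members in blue and the 14 other tested genes of the family in grey. The dashed line marks the median of all tested genes, 0.15, and the interval of *Gsta3* ends just under 0 while those of the other members include it.

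In TPM as deposited, the summed output of the 10 genes was nearly the same in every mouse. It was 14420 and 14650 TPM in WT against 14460 and 15130 TPM in KO, or 1.44% to 1.52% of all TPM. The log2 ratio of KO over WT was 0.025 beside a pooled SD of 0.034 within genotypes. Within the sum, the alpha class stood at 1814 and 2171 TPM in WT against 1473 and 1512 TPM in KO (log2 ratio -0.41), which is almost all *Gsta3*. The mu class stood at 2218 and 1841 TPM in WT against 1816 and 1853 TPM in KO (log2 ratio -0.14). The share of *Gsta3* in the sum was 11.1% and 13.4% in WT and 8.33% and 8.5% in KO, and that of *Mgst1* 33.7% and 29.5% in WT and 38.3% and 32.5% in KO. With upper quartile scaling the log2 ratio of the sum was -0.11, larger in size than the SD of 0.034 of the unscaled sums. The near equality of the sums therefore depends on the scaling.

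**Figure D4:**
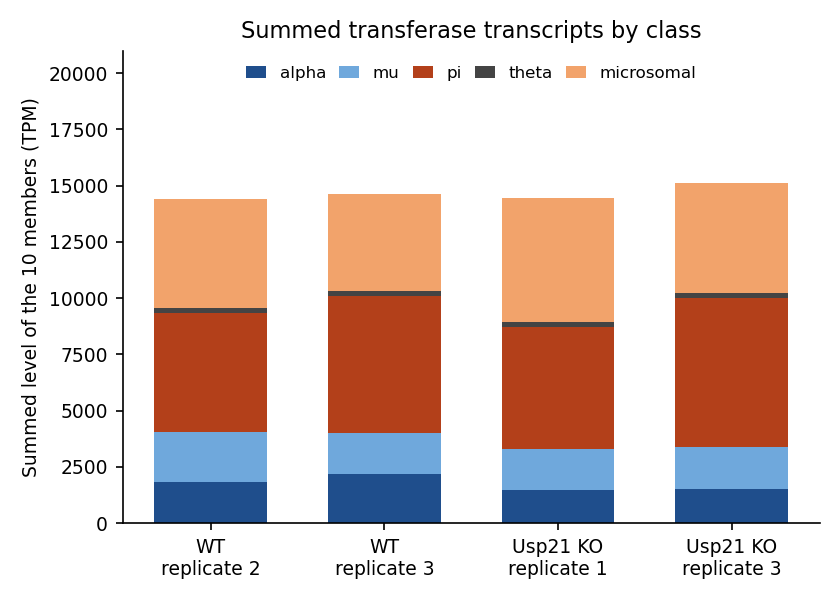
Summed TPM of the 10 members (vertical axis, from 0) in each library, stacked by class. The 4 columns differ little in height, between 14420 and 15130 TPM, while the alpha part is smaller in both KO libraries than in either WT library.

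Of 22 further genes of the superfamily, 20 were above 0 in at least 1 library and 14 were tested. A total of 4 had a log2 fold change above 0 and 10 below 0, with a median of -0.16, and 0 passed the adjusted threshold in limma. An unadjusted p under 0.05 was found for 1 higher gene, *Gstp2*, and for 3 lower genes, where 8.45% of all tested genes passed it as higher in KO and 2.04% as lower. The theta-class gene *Gstt3*, next to *Gstt1* on chromosome 10, was measured at 54.2 and 41.1 TPM in WT and at 25.8 and 26.3 TPM in KO. Its log2 fold change was -0.83 ± 0.20 (SE, n = 2 per group; unadjusted p = 0.00694, adjusted p = 0.458 by limma). *Mgst3*, which encodes a microsomal enzyme with leukotriene C4 synthase activity, lies at chr1:167371966-167393841 (reverse strand, GRCm38). *Mgst3* was measured at 16.3 and 14.1 TPM in WT and at 8.43 and 10.9 TPM in KO (log2 fold change -0.61 ± 0.22 (SE, n = 2 per group), adjusted p = 0.464 by limma). The part of alleles linked to *Usp21* in the *Mgst3* values was not tested. *Alox5ap*, the 5-lipoxygenase activating protein of the same membrane protein family and a gene of myeloid cells, stood at 4.41 and 2.61 TPM in WT against 0.996 and 1.71 TPM in KO. The Kupffer cell list summed to 176 and 203 TPM in WT against 94.5 and 243 TPM in KO. The neutrophil list summed to 4.38 and 45.1 TPM in WT against 4.16 and 2.27 TPM in KO, with WT replicate 3 apart from the other libraries. The part of these cells in the *Alox5ap* values was not tested. *Gstz1*, which isomerizes an intermediate of tyrosine breakdown, was the most abundant further gene, at 443 and 419 TPM in WT against 399 and 367 TPM in KO. *Gstt4* and *Ptges* were at 0 in all libraries.

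Among 20 tested regulators of these genes, 7 had a log2 fold change above 0 and 13 below 0, with a median of -0.062. In limma 1 passed the adjusted threshold, and 2 higher and 4 lower genes had an unadjusted p under 0.05, where 8.45% and 2.04% of all tested genes did. The list, with *Dbp*, *Tef* and *Hlf* in it, was chosen with earlier results of these data known, so these counts only describe it. *Dbp*, a PAR bZIP factor under the circadian clock that drives detoxification genes in liver together with its relatives *Tef* and *Hlf*, was measured at 56.8 and 41.3 TPM in WT and at 4.73 and 4.97 TPM in KO. It fell by 3.08 on the log2 scale (SE 0.23, n = 2 per group; adjusted p = 0.0193 by limma). Without any 1 of the libraries the value ranged from -3.31 to -2.85, with adjusted p between 0.170 and 0.355 (limma). The call was also lost with no filter on low TPM (adjusted p = 0.0578) and with variances not moderated across genes (adjusted p = 0.438). The read-count table, which lists many abundant genes at 0, held 2 and 1 reads of *Dbp* in WT and 7 and 3 in KO, the opposite direction, and limma on its CPM values (reads relative to the library total, as scaled by the authors) gave a log2 fold change of 1.52 (adjusted p = 0.65). *Tef* was measured at 17.0 and 21.3 TPM in WT against 8.23 and 9.0 TPM in KO (log2 fold change -1.06, adjusted p = 0.402 by limma), and *Hlf* at 7.43 and 7.02 TPM in WT against 4.32 and 4.37 TPM in KO (log2 fold change -0.62, adjusted p = 0.464 by limma).

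*Nfe2l2*, which encodes NRF2, and *Keap1*, its inhibitor, had log2 fold changes of -0.09 and -0.04. *Nr1i3*, which encodes CAR, was measured at 38.9 and 42.1 TPM in WT against 34.9 and 26.5 TPM in KO (log2 fold change -0.40, adjusted p = 0.516 by limma). *Nr1i2*, which encodes PXR, had a log2 fold change of -0.02. The small MAF gene *Maff* was measured at 4.22 and 4.72 TPM in WT and at 1.64 and 1.95 TPM in KO (-0.97, adjusted p = 0.464 by limma). *Nfe2l1*, a relative of NRF2, was measured at 21.2 and 26.0 TPM in WT against 33.8 and 34.4 TPM in KO (0.52, adjusted p = 0.464 by limma). *Hnf4a*, a master factor of hepatocyte identity, was measured at 112 and 105 TPM in WT against 171 and 155 TPM in KO (0.59, adjusted p = 0.464 by limma).

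Promoters were searched for the letters TGACNNNGC, the core of the antioxidant response element bound by NRF2 with small MAF proteins, on both strands from 250 bases before to 50 bases after the RefSeq gene start (GRCm38.p6). Windows were found for 9 of the 10 members, and 2 of their 11 windows held the letters, against 12.4% of all 32851 windows. Both matches are shown with the motif in capitals. That of *Gsta3* is at chr1:21240454-21240483 (forward strand, 121 bases upstream of the start). *Mgst1* has 2 RefSeq windows, and its match is at chr6:138140460-138140489 (reverse strand). This match is 56 bases upstream of a RefSeq start that lies inside the gene span given above, so the match is inside that span too.
Gsta3: aactcaggcaTGACATTGCatttttcttct
Mgst1: ccccgcctccTGACCGTGCcaagccccgcc
The letters TTANGTAA, read by PAR bZIP factors, were in 2.32% of all windows and in 0 of the members' windows. These matches describe the letters of the windows only.

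Of 20 tested NRF2 targets and genes of glutathione supply, 10 had a log2 fold change above 0 and 10 below 0, with a median of 0.014. In limma 0 passed the adjusted threshold and 2 had an unadjusted p under 0.05, near the 10.5% of all tested genes. *Gclc*, the catalytic subunit of the enzyme that limits glutathione synthesis, was measured at 67.1 and 43.0 TPM in WT and at 112 and 114 TPM in KO. Both KO libraries were well above WT, with a log2 fold change of 1.06 ± 0.24 (SE, n = 2 per group; unadjusted p = 0.00556, adjusted p = 0.45 by limma). *Nqo1*, a quinone reductase and a standard NRF2 target, was measured at 4.84 and 3.89 TPM in WT and at 2.46 and 1.08 TPM in KO (log2 fold change -0.99 ± 0.33 (SE, n = 2 per group), adjusted p = 0.464 by limma). Of 17 tested genes that process or export glutathione conjugates, 10 had a log2 fold change above 0 and 7 below 0, with a median of 0.10, beside 0.15 over all tested genes. In limma 0 passed the adjusted threshold and 1 had an unadjusted p under 0.05, where 10.5% of all tested genes did. *Abcc2*, the canalicular pump for glutathione conjugates, was measured at 38.3 and 42.7 TPM in WT and at 63.8 and 54.5 TPM in KO (log2 fold change 0.53 ± 0.18 (SE, n = 2 per group), adjusted p = 0.464 by limma).

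Several transferases are known to be enriched in pericentral hepatocytes, so markers of the zones are given beside them. Of 10 tested pericentral genes, 9 had a log2 fold change below 0, with a median of -0.39 beside 0.15 over all tested genes. Both KO libraries were below WT in 7 and above it in 1, where 10.9% and 34.4% of all tested genes had these orders. The zone lists were also chosen with earlier results of these data known. In limma 0 passed the adjusted threshold and 1 had an unadjusted p under 0.05, where 10.5% of all tested genes did. *Cyp2a5*, a coumarin hydroxylase, was measured at 495 and 616 TPM in WT and at 222 and 177 TPM in KO (log2 fold change -1.47 ± 0.21 (SE, n = 2 per group), adjusted p = 0.188 by limma). Of 12 tested periportal genes, 10 had a log2 fold change above 0, with a median of 0.20, near the 0.15 of all tested genes. Both KO libraries were above WT in 4, near the share of all genes, and below it in 2. In limma 0 passed the adjusted threshold and 1 had an unadjusted p under 0.05, *Sult5a1*, at 15.9 and 13.5 TPM in WT against 5.78 and 10.3 TPM in KO (-0.84, adjusted p = 0.464 by limma). The part of zonation in the *Gsta3* and *Gstt1* values was not tested.

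The read-count table could not test the members. Of the 10 genes, 7 had no reads in any library, and the most was 2 reads, for *Gstm1* in WT replicate 3. *Gsta3* had 1 read in WT replicate 3 and *Mgst1* 1 read in KO replicate 3. *Gstp1*, at 5318 TPM or more in every library of the TPM table, was listed at 0 in this one. Because *Gapdh* is also listed at 0 there, a 0 in this table sets no limit on a level, and every comparison of the members rests on the TPM values.

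The 5 genes outside the family whose values over the 4 libraries were closest to the mean of the members, by Euclidean distance of centred log2(TPM + 1) among 3992 genes averaging 10 TPM or more, were *Nop53* (0.019), *Apof* (0.0273), *Inca1* (0.0368), *Igsf5* (0.0416) and *Notum* (0.0419). The mean of the members was 0.08 and -0.04 in WT and 0.10 and -0.14 in KO on this centred scale, so this likeness is to a nearly flat pattern with its largest difference between the KO libraries.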

How the data were processed

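RNA-seq of WT liver (replicates 2 and 3) and *Usp21* KO liver (replicates 1 and 3) was used, grouped by GEO's labels. Nothing in the labels beyond a mouse number describes the replicates, so p-values measure the spread between these libraries, which may be technical. The authors assigned reads to an mm10 transcriptome with Salmon and deposited TPM per gene, and deposited log2(TPM + 1) values of the same table, used only as a check. The authors also counted reads with HTSeq, scaled them with edgeR's TMM method and deposited the CPM as a signal, and its logarithm was not used. Partek and deepTools are also named in the submitters' processing notes. Versions, annotation release and strand setting are not given in the sources used here. Whole reads were recovered from the CPM (100% of values within 0.02 reads).

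Genes whose mean reached 1 TPM (9581) were fitted on log2(TPM + 1) with limma 3.58.1 (eBayes with trend, 3.62 prior degrees of freedom) in R 4.3.3, two-sided, with Benjamini-Hochberg adjustment. Fold changes are on this scale, which understates changes of low genes, and ± is the standard error. In 35126 of 35739 cases the gene ID was found in GENCODE M21. Shared sequence is the share of a gene's distinct 31-base stretches found in transcripts of other genes above 0 TPM. All members were named. Genes of the family, regulator, glutathione supply, conjugate and zone lists were named where the unadjusted p was under 0.05 or the change at least 2-fold. This rule was not applied to the cell marker lists, which were given by sums, counts or medians. Genes in them that would meet it, such as *Rgs5*, *Lyve1* and *S100a8*, were not named. *Nfe2l2*, *Keap1*, *Nr1i3*, *Nr1i2*, *Cbs*, *Cth*, *Cebpa*, *Oat*, *Hal* and the named cell markers were added after their values were seen. Members and lists were chosen with earlier results of these data known. Alternatives were pseudocounts of 0.1 and 5, no filter, a mean of at least 5 TPM, upper quartile scaling, other variance moderation, limma on log2(CPM + 1), edgeR 4.0.16 (quasi-likelihood) and DESeq2 1.42.0 on recovered reads, and each library left out. The scripts were tested on simulated data.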

Additional observations from a re-analysis of the deposited data

How the results depend on the processing

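The count of members past the adjusted threshold was 0 in every limma fit on TPM. The CPM table, with at most 2 reads per member, could not test them, while over all genes edgeR called 12 and DESeq2 called 1 of 5146. The count with an unadjusted p under 0.05 was 1, *Gsta3*, and became 2 with upper quartile scaling (*Gsta3* and *Gstt1*) or without moderation (*Gsta4* and *Gstt1*, not *Gsta3*), 0 with no filter, with moderation without a trend, on CPM, in edgeR and in DESeq2, and 0 to 1 when 1 library was left out. Members with both KO libraries above WT numbered 3, but 0 with upper quartile scaling, 0 on CPM, and 3 to 5 without 1 library, and those below numbered 2, but 0 on CPM and 2 to 5 without 1 library. On CPM the members have almost no reads, which is why nothing separates there. The log2 ratio of the sum was -0.11 with upper quartile scaling and -0.0074 to 0.058 without 1 library.

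Upper quartile scaling reversed *Gstp1* (-0.054), *Gstm6* (-0.12) and *Gstm7* (-0.068). Leaving out 1 library reversed *Gstm2* (range -0.88 to 0.18), *Gstm3* (-0.72 to 0.065), *Gstp1* (-0.065 to 0.23), *Gsta13* (-0.27 to 0.56), *Gstm4* (-0.77 to 0.31), *Gstm6* (-0.36 to 0.39), *Gstm7* (-0.28 to 0.40), *Gstp3* (-0.72 to 0.40), *Gstt2* (-0.34 to 0.015), *Gsto1* (-0.38 to 0.26) and *Gstk1* (-0.31 to 0.17). *Dbp* reversed on CPM (1.52), in edgeR (1.54) and in DESeq2 (1.59), and the cause was not tested. Of 110 values of the members under the alternatives, 104 kept their direction and side of the threshold, and 6 reversed. Changing the filter or the variance moderation leaves the fold change of a gene as it was, so those values could not reverse. All 6 reversals came with upper quartile scaling or with 1 library left out. No paired analysis was possible because the groups share only replicate number 3. The read-count table lists 428 of 682 genes at 100 TPM or more at 0, a gap whose cause was not tested. The depth behind the TPM values is unknown, and 2 libraries per genotype leave intervals that for 4 members reach past a 2-fold difference.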
